A study of Xenopus laevis with 12 samples.

Results

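The Fos and Jun family of *Xenopus laevis* was taken as every row of the deposited count table whose name, without its final .L or .S, is fos, fosb, fosl1, fosl2, jun, junb or jund. These were 14 of 42638 rows. *X. laevis* is an allotetraploid frog whose genome joins 2 ancestral subgenomes, and .L and .S name the copy of a gene on each of them. All 7 genes had both copies in the table.

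Fos and Jun proteins carry a basic leucine zipper, the helix through which they pair and bind DNA, and their dimers make up the transcription factor AP-1. Jun proteins can pair with each other or with Fos proteins, whereas Fos proteins need a partner from outside their own subfamily. Several of the genes, fos above all, are immediate early genes, which are transcribed soon after a growth factor, calcium or stress signal without the need for new protein, and whose RNA is short-lived. Fos transcription is also a known early response to wounding in frog embryos.

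RNA was measured in whole wild-type embryos collected at stage 25, in 12 libraries of 15 pooled embryos each. Embryos were either untreated or kept in 90 µM thioridazine, a drug that blocks dopamine receptors, from stage 12.5 to stage 25, and treated and control embryos were at 18 °C during that time. They were raised in small or large groups, which the study's text gives as 100 and 300 embryos, with the medium scaled to the number of embryos. Each of the 4 groups (untreated small, untreated large, thioridazine small and thioridazine large) has 3 libraries, lettered A, B and C. What a letter stands for is not stated in the sources used here. Embryos of an experiment are described in 1 place as a single clutch and in another as pooled from separate mothers. The study's reporting form says that experiments were done independently 3 or more times over several weeks. Whether the letters are such repeats is not stated. Each p-value therefore covers no more than library-to-library spread, which may be technical.

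Library totals ran from 3497198 to 7822395 expected counts, with a median of 6018883. The 4 libraries of letter C held 3497198 to 5496905, and those of letter A 5147104 to 7222013. Libraries of 1 letter deviated together from their group means in all 18 pairs of same-lettered libraries, and letter A stood apart: 8875 of the 21731 genes tested (40.8%) differed between letter A and letters B and C. Each thioridazine library was therefore also set beside the untreated library of the same letter and group size, which gives 6 pairs. The label of whole embryo was checked with markers of muscle, neural tissue, epidermis, cement gland, notochord, endoderm, blood, pronephros, heart, eye, neural crest and multiciliated cells. All 35 rows found for 18 of the 19 marker symbols had counts in every library.

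Thioridazine-treated embryos had more junb RNA than untreated embryos. Averaged over the group sizes, junb.L was 2.84-fold and junb.S 2.41-fold higher, and both rows were above every untreated library in all 6 thioridazine libraries. fos.L and fos.S had larger fold changes but varied far more, with the 2 thioridazine libraries of letter A well above the rest. jun.L was higher with thioridazine within each letter, while the fold changes of the fosl2 and jund copies were small and not called. None of the 10 rows tested differed between large and small groups past the threshold.

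Levels below are CPM, counts relative to the library total after scaling for composition (TMM), and they are compared between libraries and not between genes, since transcript length was not taken into account. Fold changes are log2 differences between group means from edgeR's quasi-likelihood test, with their standard errors. A row was called when its p, adjusted by the Benjamini-Hochberg method over all genes tested, was under 0.05. The fit was made without the letters, and again with the letter as a block, which gives each letter its own level and compares treated with untreated libraries inside it. Of the 14 rows, 10 passed the filter on low counts (1.8 CPM in at least 3 libraries). The copies of fosb and fosl1 did not pass and carry no test in the fits below. In whole embryos, fewer cells of a type and less RNA per cell cannot be told apart.

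**Figure D1:**
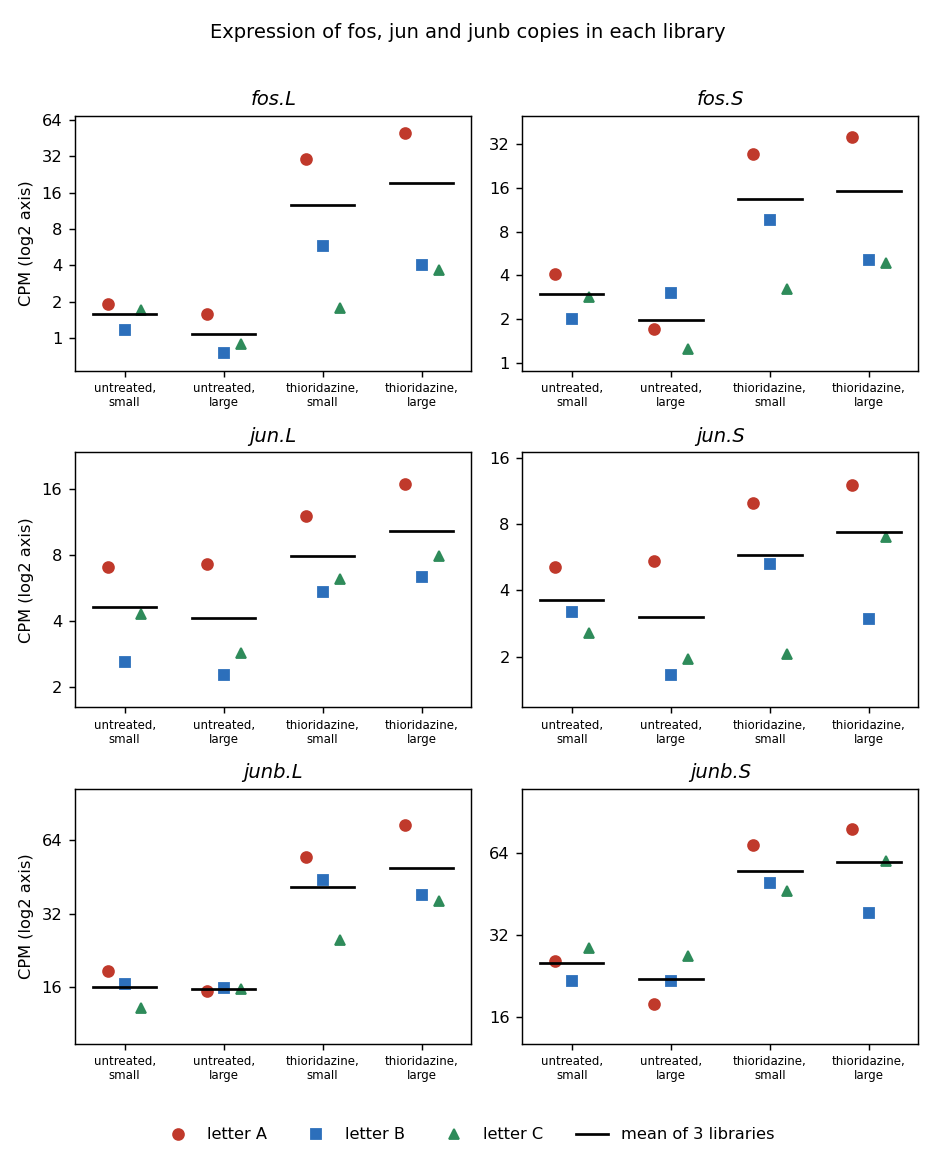
CPM of fos, jun and junb copies (log2 axis, with its own range in each panel) in the 12 libraries by group, with colour and shape for the letter and a bar for the mean of 3 libraries. Both junb rows have all 6 thioridazine libraries above all 6 untreated libraries, and the thioridazine libraries of letter A are the 2 highest in every panel.

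Among the Fos genes, fos encodes the protein that gives the subfamily its name and is in mammalian cells the textbook immediate early gene. In untreated small groups fos.L measured 1.90, 1.16 and 1.71 CPM in letters A, B and C, and in untreated large groups 1.59, 0.753 and 0.892 CPM. In thioridazine small groups it measured 30.5, 5.78 and 1.77 CPM, and in thioridazine large groups 49.6, 4.03 and 3.64 CPM. The 2 libraries of letter A stood far above the others, and 5 of the 6 thioridazine libraries were above the highest untreated one. The exception was small-group letter C, a library of 3639288 expected counts, whose value lay within the untreated range.

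These levels rest on few reads outside the thioridazine libraries of letter A. The untreated libraries of letter A held 13 (small groups) and 12 (large groups) expected counts of fos.L. fos.L summed to 44.96 expected counts over the 6 untreated libraries and 563.45 over the 6 thioridazine libraries. Only 1 untreated library reached the filter's minimum for fos.L, so the row passed through the thioridazine libraries, where it was higher. Its thioridazine fold changes are therefore given as values without p-values. Counts of rows called are given without it or name it, except where processing settings are compared. Set beside the untreated library of the same letter and size, fos.L was 16.0-fold and 31.2-fold higher in letter A, 5.0-fold and 5.35-fold in letter B, and 1.03-fold and 4.08-fold in letter C. All 6 ratios were above 1, and each letter had its own range, highest in A and lowest in C.

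fos.S was also highest in the thioridazine libraries of letter A. It measured 4.10, 2.02 and 2.86 CPM in untreated small groups and 1.72, 3.01 and 1.25 CPM in untreated large groups. With thioridazine it measured 27.3, 9.68 and 3.25 CPM in small groups and 35.6, 5.10 and 4.85 CPM in large groups. Its paired ratios were 6.67 to 20.7 in letter A, 1.70 to 4.78 in letter B and 1.14 to 3.88 in letter C. Treated and untreated libraries overlapped, with 5 of 6 thioridazine libraries above the highest untreated value.

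Whether fos.S was called depended on the block. Averaged over group sizes, fos.L had a log2 fold change of 3.54 ± 0.85 (SE) without the block. With the letter as a block it was 3.43 ± 0.48. fos.S went from 2.53 ± 0.62 (adjusted p = 0.589) to 2.36 ± 0.42 (adjusted p = 0.0318) in edgeR's quasi-likelihood test. DESeq2 called fos.S without the block, at adjusted p = 0.00621.

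Without the 4 libraries of letter A, the fos copies were lower in fold change, and fos.S was not called. In letters B and C alone, with the block, fos.L had a log2 fold change of 1.81 ± 0.43 and fos.S one of 1.28 ± 0.34 (edgeR adjusted p = 0.186). The difference of the responses, letter A minus letters B and C, was 2.74 ± 0.56 for fos.L and 2.25 ± 0.56 for fos.S (edgeR unadjusted p = 0.00164). The fos.S difference did not pass after adjustment over all genes, where 0 of 21731 genes were called and 361 (1.66%) had an unadjusted p under 0.05. What set letter A apart was not tested.

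fosl2, which encodes a Fos-related protein that many cells make without a stimulus, was called in neither fit. fosl2.L measured 53.0, 44.5 and 40.6 CPM in untreated small groups and 39.3, 39.9 and 40.1 CPM in untreated large groups. In treated embryos it measured 56.2, 53.1 and 47.5 CPM in small groups and 67.1, 50.2 and 47.9 CPM in large groups. The ranges overlapped, but each thioridazine library was above its untreated partner, by 1.06-fold to 1.71-fold. Its log2 fold change was 0.33 ± 0.12 (edgeR unadjusted p = 0.0208), which did not pass after adjustment, and with the block 0.32 ± 0.10 (edgeR adjusted p = 0.467).

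fosl2.S had 5.30 to 11.0 CPM in untreated and 4.13 to 10.8 CPM in thioridazine libraries. Treated libraries were higher in 3 of 6 pairs, and the log2 fold change of 0.18 ± 0.26 had a 95% interval of -0.37 to 0.74. A change of the size measured for junb.L lies outside that interval.

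fosb and fosl1, which encode a close relative of Fos and the protein Fra1, were at the edge of detection. fosb.L measured 0.878, 0.578 and 0.571 CPM in untreated small groups and 0.927, 0.903 and 0.178 CPM in untreated large groups. Treated embryos had 2.42, 0.251 and 0.885 CPM in small groups and 3.89, 0.806 and 0.303 CPM in large groups. The 2 high libraries were those of letter A, and the other 4 thioridazine libraries lay within the untreated range. fosl1.L summed to 7 expected counts over the untreated libraries, 3 of which held 0, and to 39 over the thioridazine libraries. Its values with thioridazine were 2.71, 0.377 and 0.295 CPM in small groups and 2.53, 0.269 and 0.303 CPM in large groups, again highest in letter A.

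The .S copies of both genes had the same 2 highest libraries. fosb.S reached 1.71 and 2.14 CPM in letter A with thioridazine, against at most 1.34 CPM in the other 10 libraries. fosl1.S reached 1.57 and 0.973 CPM there, against at most 0.535 CPM elsewhere. Both letter A thioridazine libraries were thus above the other 10 libraries in all 4 rows under the filter. A few reads set the order there, and no share over other rows under the filter is given here. Among the 10 rows that passed the filter the same order was met by 8, fos.L among them, and among all genes tested by 837 of 21731 (3.85%).

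**Figure D2:**
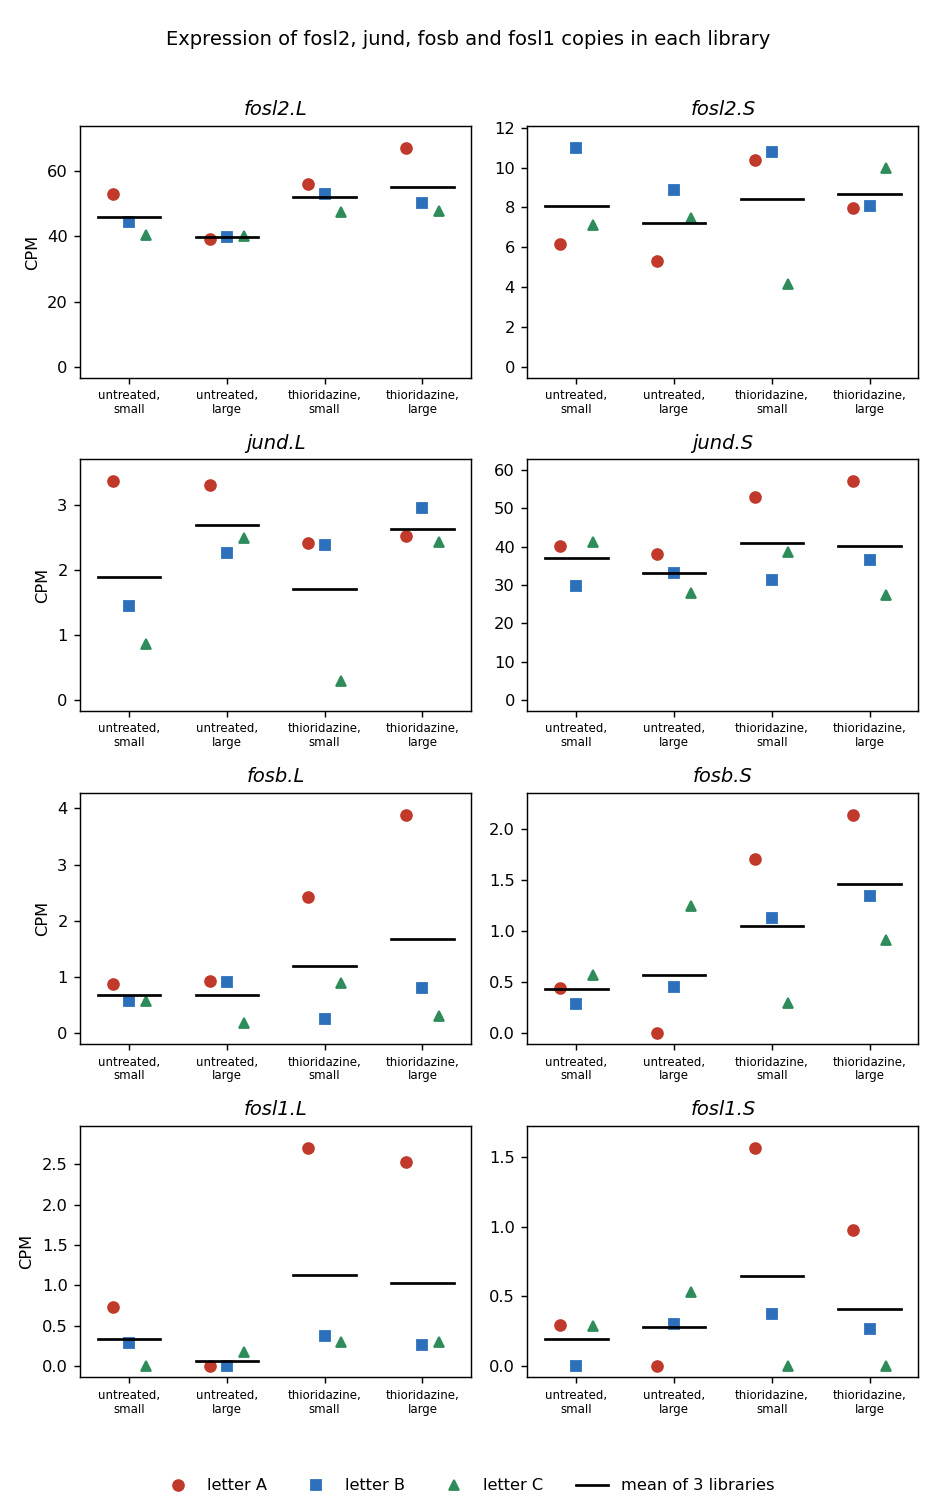
CPM of fosl2, jund, fosb and fosl1 copies (linear axis, with its own range in each panel) in the 12 libraries by group, with colour and shape for the letter and a bar for the mean of 3 libraries. The copies of fosb and fosl1 lie under 4 CPM in every library and have their 2 highest values in the thioridazine libraries of letter A.

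Among the Jun genes, junb encodes a Jun protein that is induced by many stimuli and can restrain the activity of Jun. junb.L measured 18.7, 16.5 and 13.1 CPM in letters A, B and C of untreated small groups and 15.5, 16.0 and 15.7 CPM in untreated large groups. With thioridazine it measured 54.5, 44.0 and 25.1 CPM in small groups and 74.3, 38.1 and 36.1 CPM in large groups. Untreated libraries lay close together, and the lowest thioridazine library was above the highest of them. Letter A was again the highest in each treated group, but letters B and C also stood clear of the untreated range.

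junb.S measured 25.6, 21.7 and 28.6 CPM in untreated small groups and 17.9, 21.7 and 26.8 CPM in untreated large groups. Treated embryos had 68.6, 49.7 and 46.3 CPM in small groups and 78.4, 38.7 and 60.0 CPM in large groups. The groups did not overlap. Such a separation of the 6 thioridazine from the 6 untreated libraries, with the treated libraries higher, was met by 2 of the 10 family rows, both of junb, and by 56 of 21731 genes (0.258%).

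Both junb copies rose in edgeR's quasi-likelihood test averaged over group sizes. The log2 fold change was 1.51 ± 0.22 (SE, 95% interval 1.02 to 1.99) for junb.L and 1.27 ± 0.19 (0.86 to 1.67) for junb.S, each with an adjusted p of 0.0320. These were 2 of 10 family rows, against 19 of 21731 genes called higher (0.0874%) and 0 called lower. With the letter as a block 4 of the 9 rows other than fos.L were called (fos.S, jun.L, junb.L and junb.S). Over all genes 94 of 21731 were called higher (0.433%) and 0 lower. junb.L then had 1.47 ± 0.15 (adjusted p = 1.19e-04) and junb.S 1.26 ± 0.15 (adjusted p = 6.46e-04). The fold changes barely moved between the fits, and the standard errors were smaller with the block.

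Without the block the junb calls were close to the threshold. Leaving out 1 library at a time, junb.L stayed called in 4 of 12 fits (without thioridazine small letter C or any 1 thioridazine large library) and junb.S in 2 of 12 (without thioridazine small letter C or thioridazine large letter B). The log2 fold change stayed between 1.30 and 1.63 for junb.L and between 1.14 and 1.38 for junb.S, and the highest adjusted p was 0.145 for both. In letters B and C alone, with the block, junb.L was 1.22 ± 0.16 higher (edgeR adjusted p = 2.14e-04) and junb.S 0.98 ± 0.14 (edgeR adjusted p = 9.29e-04).

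jun encodes the founding Jun protein, which is a target of the JNK kinases. jun.L measured 7.02, 2.60 and 4.28 CPM in untreated small groups and 7.28, 2.26 and 2.85 CPM in untreated large groups. With thioridazine it measured 11.96, 5.41 and 6.20 CPM in small groups and 16.7, 6.31 and 7.88 CPM in large groups. Letter A was high in both treatments, so treated and untreated libraries overlapped over all letters but not within any 1 letter. The paired ratios of 1.45 to 2.80 were alike in size across letters.

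Averaged over group sizes, jun.L had a log2 fold change of 1.01 ± 0.38 without the block (edgeR unadjusted p = 0.0211, not called) and 1.06 ± 0.16 with it (edgeR adjusted p = 0.00435, called). The difference of its response, letter A minus letters B and C, was -0.15 ± 0.35, with a 95% interval of -0.92 to 0.62. In letters B and C alone, with the block, the log2 fold change was 1.12 ± 0.26 (edgeR adjusted p = 0.0725).

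jun.S measured 5.12, 3.18 and 2.57 CPM in untreated small groups and 5.43, 1.66 and 1.96 CPM in untreated large groups. With thioridazine it measured 9.97, 5.28 and 2.07 CPM in small groups and 12.1, 2.95 and 6.97 CPM in large groups. It was higher in 5 of 6 pairs, the exception being small-group letter C at 0.803-fold. Its log2 fold change of 0.96 ± 0.46 was not called, nor was the value of 0.98 ± 0.26 with the block (edgeR adjusted p = 0.227).

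jund encodes a Jun protein that is usually made without a stimulus. jund.S had 28.0 to 41.1 CPM in untreated and 27.3 to 57.0 CPM in thioridazine libraries, higher in 4 of 6 pairs, and its log2 fold change was 0.21 ± 0.20 (95% interval -0.21 to 0.64). jund.L had 0.857 to 3.37 CPM in untreated and 0.295 to 2.95 CPM in thioridazine libraries, higher in 2 of 6 pairs. Its log2 fold change of -0.08 ± 0.44 (95% interval -1.02 to 0.87) leaves room for a change in either direction.

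**Figure D3:**
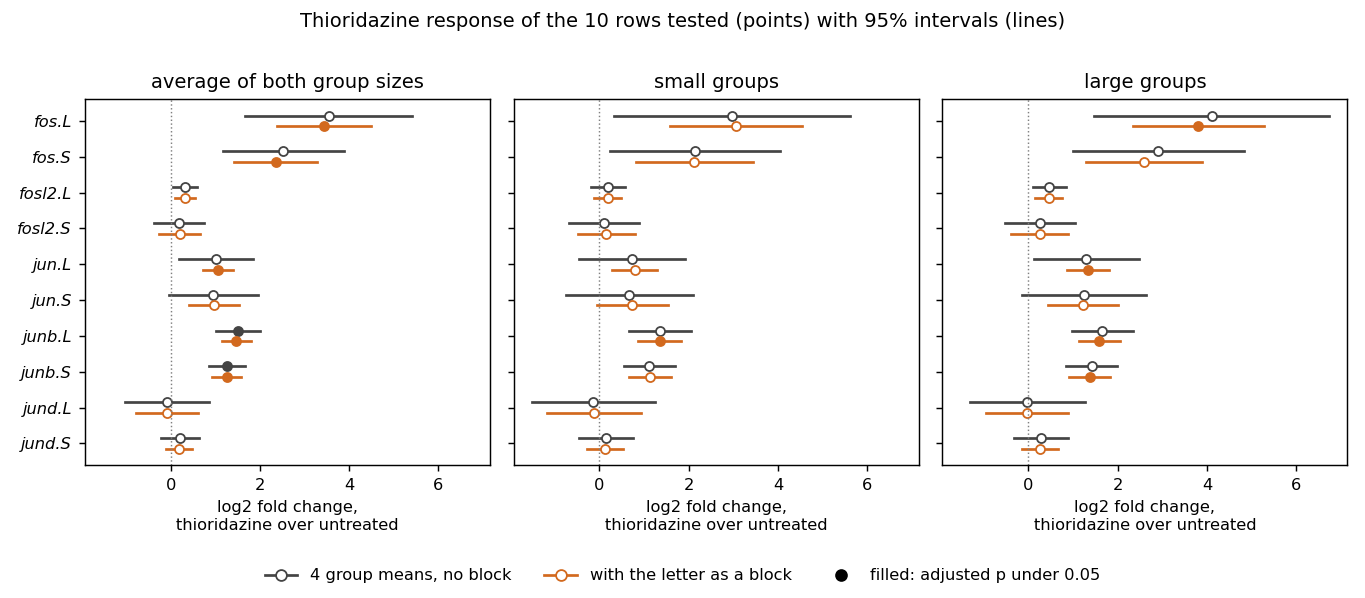
Log2 fold changes of thioridazine over untreated embryos for the 10 rows tested, averaged over group sizes and in small and large groups, with 95% intervals from edgeR. Points are filled where the adjusted p was under 0.05, which without the block holds for junb.L and junb.S in the average alone, and with the letter as a block for 5 rows in the average, 1 in small and 4 in large groups. The filled rows of the average and of large groups include fos.L, which passed the filter through the thioridazine libraries, so its filled points are not read as calls.

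At each group size alone, the family's fold changes had the same order. In small groups 0 of 10 rows were called without the block, against 2 of 21731 genes called higher (0.0092%). Still, fos.S, junb.L and junb.S had an unadjusted p under 0.05 in edgeR, as did 1.01% of all genes. DESeq2 also called 0. With the block, junb.L was called at a log2 fold change of 1.34 ± 0.22 (edgeR adjusted p = 0.0166), 1 of 10 rows against 0.179% of all genes. junb.S had 1.13 ± 0.22 (edgeR adjusted p = 0.0686).

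In large groups 0 of 10 rows were called by edgeR without the block, again against 0.0092% of all genes. There fos.S, fosl2.L, jun.L, junb.L and junb.S had an unadjusted p under 0.05 (1.93% of all genes). DESeq2 called junb.L and junb.S there, and 27 genes in all. With the block, 3 of the 9 rows other than fos.L were called, against 0.258% of all genes called higher. These were jun.L at 1.33 ± 0.22 (edgeR adjusted p = 0.0149), junb.L at 1.59 ± 0.21 (0.00297) and junb.S at 1.38 ± 0.21 (0.0116). fos.L had 3.81 ± 0.68, given as a value only.

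Whether the response depended on group size was tested as the difference between the 2 responses. The 10 differences ran from 0.11 for jund.L to 1.13 for fos.L on the log2 scale, where a positive value is a larger response in large groups. The rows share the same libraries, and the share of all genes above 0 is not given here. None of the 10 was called and 0 had an unadjusted p under 0.05 in edgeR, and DESeq2 called 0. Over all genes edgeR called 0 (0%), and 215 (0.989%) had an unadjusted p under 0.05. For junb.L the difference was 0.30 ± 0.45 with a 95% interval of -0.67 to 1.28, and a difference of 1 on the log2 scale lies inside that interval. With the block it was 0.25 ± 0.31 (95% interval -0.41 to 0.90), and 0 of 10 rows were called.

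Large against small groups were compared in untreated and in thioridazine-treated embryos. In untreated embryos the log2 differences ran from -0.62 for fos.S to 0.43 for jund.L, and jund.L was the 1 row above 0. In thioridazine-treated embryos they ran from -0.02 for jund.S to 0.57 for fos.L. Of the 10 rows, 0 were called and 0 had an unadjusted p under 0.05 in either comparison by edgeR, and DESeq2 called 0. Over all genes edgeR called 0 in both (0%). junb.L measured 16.1 ± 2.81 CPM in untreated small and 15.7 ± 0.230 CPM in untreated large groups (mean ± SD, n = 3), and 41.2 ± 14.9 and 49.5 ± 21.5 CPM in the treated groups. The same libraries gave the responses above, so these values are not independent of them.

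The letters were compared with the groups in the same fit. In letter A, 6 of 10 rows were called higher than in letters B and C (fos.L, fos.S, jun.L, jun.S, junb.L and jund.S) and 0 lower, or 5 of 9 without fos.L, against 22.8% of all genes called higher and 18% lower. The log2 differences were 2.76 ± 0.42 for fos.L, 1.81 ± 0.40 for fos.S, 1.20 ± 0.16 for jun.L, 1.30 ± 0.26 for jun.S, 0.54 ± 0.16 for junb.L and 0.49 ± 0.14 for jund.S. Between letters B and C 0 of 10 rows were called by edgeR or DESeq2, and 0 had an unadjusted p under 0.05 in edgeR, against 2.44% of all genes called in either direction (0.649% higher and 1.79% lower).

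The letter A difference was then tested within each treatment. In untreated libraries jun.L was the 1 row called, 1.30 ± 0.27 higher in letter A on the log2 scale (edgeR adjusted p = 0.00564), against 19.3% of all genes called in either direction. fos.L was 0.68 ± 0.48 there (edgeR adjusted p = 0.331) and junb.L 0.15 ± 0.21 (edgeR adjusted p = 0.642). In thioridazine libraries 7 of 10 rows were called, fos.L among them, all higher, against 10.9% of all genes called higher. junb.L had 0.85 ± 0.19 (edgeR adjusted p = 0.00992) and fos.L 3.42 ± 0.29, given as a value only. jun.L was thus high in letter A in both treatments, at 1.15 ± 0.23 with thioridazine. fos.L is left out of the test of the difference itself, since its thioridazine response carries no p here. Among the other rows, edgeR gave an unadjusted p under 0.05 for fos.S, junb.L (0.70 ± 0.28) and junb.S (0.79 ± 0.27). The remaining 6 rows had no unadjusted p under 0.05. Over all genes 1.66% had such a p.

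**Figure D4:**
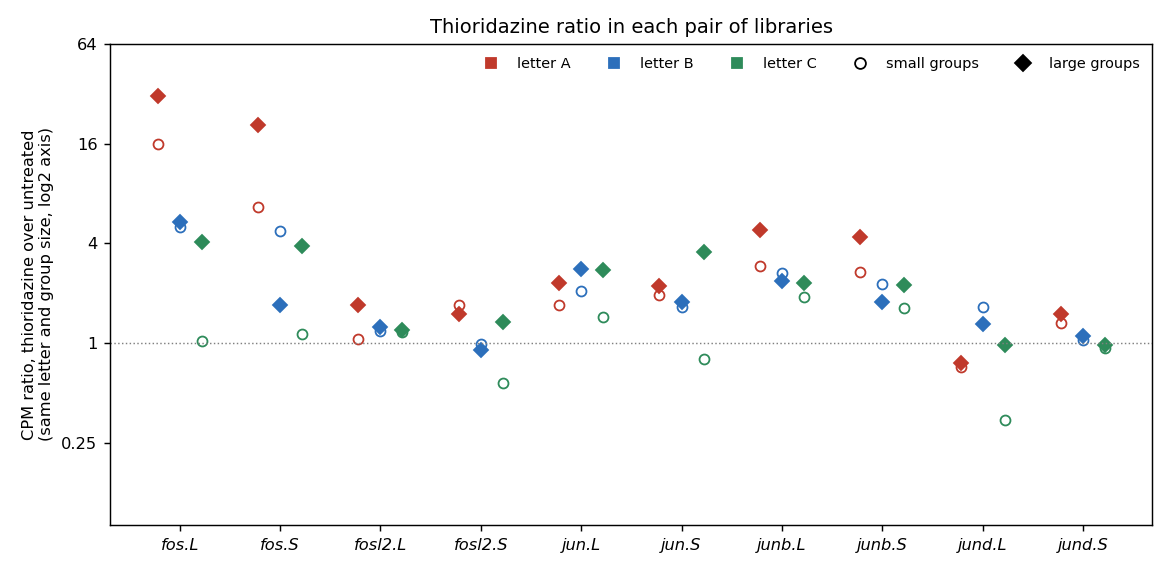
CPM ratio of each thioridazine library to the untreated library of the same letter and group size (log2 axis) for the 10 rows tested, coloured by letter, with open circles for small and filled diamonds for large groups. The fos ratios are highest in letter A, the jun.L ratios are alike in all letters, and 6 rows (fos.L, fos.S, fosl2.L, jun.L, junb.L and junb.S) lie above 1 in all 6 pairs.

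Over the 6 pairs, 6 of 10 family rows (5 of 9 without fos.L) were higher with thioridazine in every pair, against 573 of 21731 genes (2.64%). The 4 rows with an exception were fosl2.S, jun.S, jund.L and jund.S. In all 4 rows the lowest ratio was in the small-group pair of letter C, at 0.578 for fosl2.S, 0.803 for jun.S, 0.344 for jund.L and 0.940 for jund.S. This was not particular to them. The same pair was lowest for fos.L (1.03), fos.S (1.14), jun.L (1.45), junb.L (1.91) and junb.S (1.62), though not for fosl2.L. That pair's libraries held 3701983 expected counts without and 3639288 with thioridazine, and whether depth had a part in these ratios was not tested.

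The .L and .S copies are similar in sequence, and RSEM shares a read that fits both between them. Fractional counts showed where this happened. The .L count was not whole (to within 0.02) in 12 of 12 libraries for jun, 11 for jund, 9 for fosl2 and 2 for fos, and it was whole in every library for junb, fosb and fosl1. The sum of both copies was whole in all 12 libraries for all 7 genes, so the fraction given to 1 copy was matched by the other.

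The fit was repeated with the copies summed, which does not depend on this split. The summed log2 fold change with thioridazine was 1.37 ± 0.18 for junb (edgeR adjusted p = 0.0177), and with the block 1.34 ± 0.15 (edgeR adjusted p = 2.41e-04). With the block, summed fos was called at 2.68 ± 0.47 (edgeR adjusted p = 0.0488) and summed jun at 1.03 ± 0.16 (edgeR adjusted p = 0.00499). Summed fosb reached the filter's minimum in 3 libraries, all with thioridazine, so its test is not reported. Summed fosl2 (0.30 ± 0.12) and jund (0.20 ± 0.19) were not called.

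The share of the .L copy was compared between treatments in 5 genes, over all libraries and within the 6 pairs. fos.L held 35.8% ± 9.51 of the fos counts in untreated and 45.1% ± 8.87 in thioridazine libraries (SD, n = 6, two-sided exact permutation p = 0.115, Benjamini-Hochberg adjusted p = 0.574 over 5 genes). It was higher with thioridazine in 5 of 6 pairs (exact sign-flip permutation p = 0.125, adjusted 0.313), and its highest shares, 52.8% and 58.2%, were in the thioridazine libraries of letter A. junb.L held 40.5% ± 5.33 and 43.7% ± 6.04 of the junb counts, which overlapped over all libraries (exact permutation p = 0.342). Within pairs it was higher with thioridazine in 6 of 6 (exact sign-flip permutation p = 0.0312, the smallest that 6 pairs allow), which did not pass after adjustment over the 5 genes (0.156). For fosl2, jun and jund both exact permutation p-values were above 0.3. Across the 12 libraries, log2 CPM of the copies correlated at r = 0.97 for fos, 0.92 for junb and 0.86 for jun, but 0.22 for fosl2 and -0.02 for jund. The libraries share their treatment, letter and depth, so these values describe the profiles only.

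The family's shared profile, the mean of the standardized log2 CPM of the 10 rows, was highest in the thioridazine libraries of letter A (1.25 in small and 1.55 in large groups, in SD units) and lowest in untreated large letter C (-0.78). fos.L (r = 0.98), fos.S (0.96), junb.L (0.93) and fosl2.L (0.91) were closest to it, and jund.L (0.36) and fosl2.S (0.37) farthest. Outside the family, the 5 named genes most like it over the 12 libraries were nr4a1.S (r = 0.96), atf3.L (0.95), zfp36.S (0.95), ipmk.S (0.94) and cebpd.S (0.93), where the median gene had r = 0.02. nr4a1 encodes an orphan nuclear receptor, zfp36 an RNA-binding protein that promotes decay of AU-rich mRNAs, ipmk an inositol phosphate kinase, and cebpd a C/EBP transcription factor. nr4a1.S ranged from 5.71 to 15.4 CPM in untreated and from 12.39 to 106.3 CPM in thioridazine libraries.

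Genes around the family were followed in 4 lists. The first held bZIP partners and relatives of Fos and Jun, of which 20 rows were tested for thioridazine averaged over group sizes. Without the block edgeR called 0 of them, against 0.0874% of all genes, with 5 at an unadjusted p under 0.05 (1.69% of all genes), and the median log2 fold change was 0.02 (all genes -0.01). With the block it called 1, against 0.433% of all genes. This was atf3.S, which encodes a stress-induced repressor that pairs with Jun, at 1.64 ± 0.21 (edgeR adjusted p = 7.12e-04), and DESeq2 called the same row. atf3.S measured 1.35 to 3.07 CPM in untreated and 4.30 to 11.4 CPM in thioridazine libraries, without overlap, as did 0.258% of all genes with treated libraries higher. Its log2 fold change without the block was 1.62 ± 0.34 (edgeR adjusted p = 0.257). atf3.L (1.20 ± 0.39) and maff.L (0.47 ± 0.15), a small Maf protein, were not called.

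The second list held kinases and transcription factors that act upstream of fos and jun, such as SRF, its cofactors and the MAP kinases. Of 29 rows tested, edgeR called 0 with or without the block and DESeq2 called 0, and 0 had an unadjusted p under 0.05 without the block. Among all genes edgeR called 0.0874% without and 0.433% with the block, and 1.69% had such a p without it. A count of 0 in 29 rows is near these shares. The median was -0.04. Without the block, the smallest p-values belonged to map2k7.L (-0.16 ± 0.13), mrtfa.L (0.30 ± 0.25) and elk1.L (-0.33 ± 0.31).

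The third list held phosphatases and mRNA decay factors that limit immediate early signals. Of 14 rows tested, edgeR called 0 without the block (0.0874% of all genes), with 5 at an unadjusted p under 0.05 (1.69% of all genes) and a median of 0.13. With the block it called 2, zfp36.L at 0.87 ± 0.13 (edgeR adjusted p = 0.00279) and zfp36.S at 0.70 ± 0.12 (edgeR adjusted p = 0.0150), against 0.433% of all genes, and DESeq2 called zfp36.L. zfp36.L measured 11.4 to 16.2 CPM in untreated and 18.4 to 38.3 CPM in thioridazine libraries, also without overlap. dusp1.L, which encodes a MAP kinase phosphatase, had 0.48 ± 0.14 and was not called.

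The fourth list held genes known in mammals as AP-1 targets, of which 16 rows were tested. edgeR called 0 with or without the block, DESeq2 called 0, and 0 had an unadjusted p under 0.05 without the block. Among all genes edgeR called 0.0874% without and 0.433% with the block, and 1.69% had such a p without it. A count of 0 in 16 rows is near these shares. The median was -0.08, beside -0.01 over all genes, and 5 of 16 rows were above 0, as were 47.5% of all genes. Without the block, vegfa.S (-0.29 ± 0.25), cd44.L (0.17 ± 0.15) and hbegf.S (-0.37 ± 0.37) had the smallest p-values. With it, 1 row had an unadjusted p under 0.05, against 4.97% of all genes. This was mmp1.S at 0.64 ± 0.27 (edgeR unadjusted p = 0.0314).

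**Figure D5:**
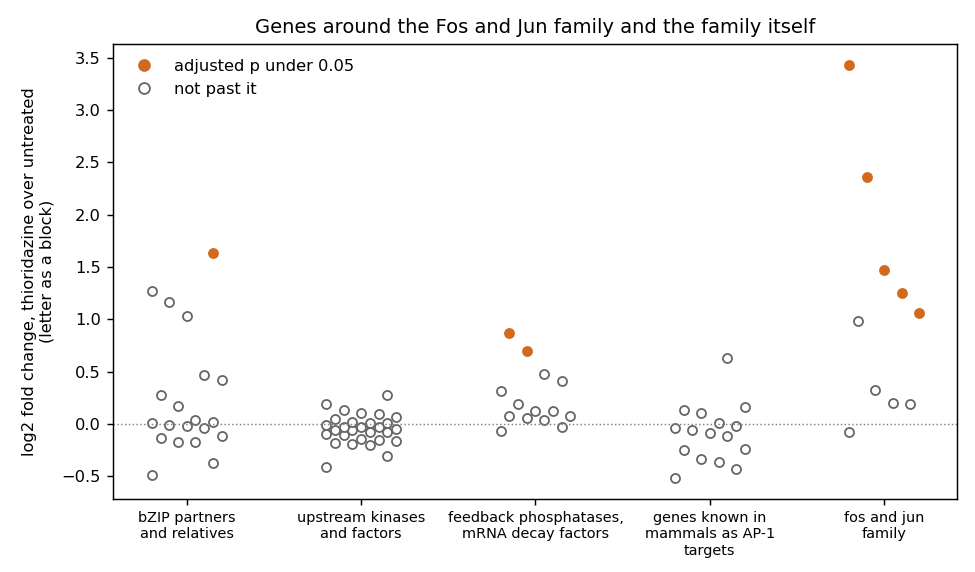
Log2 fold changes of thioridazine over untreated embryos, averaged over group sizes and with the letter as a block, for the rows of the 4 gene lists and the 10 family rows. Filled points had an adjusted p under 0.05 in edgeR, which holds for atf3.S, zfp36.L, zfp36.S and 5 family rows. The family rows include fos.L, which passed the filter through the thioridazine libraries, so its filled point is not read as a call.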

How the data were processed

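The authors trimmed reads with fastp, removed rRNA with Bowtie2, aligned with STAR and quantified genes with RSEM, and deposited RSEM's expected counts and a table of log2 CPM (filtered, TMM-normalized, voom) for 21720 genes. Limma is among the tools in the submitters' processing notes. The rRNA sequences have a stated release, but tool versions and the build of the genome alignment were not given in the sources used here. Libraries were stranded and rRNA-depleted, with single-end reads of 75 nt.

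Expected counts were rounded, filtered at 1.8 CPM in at least 3 libraries (21731 genes), scaled by TMM and fitted with edgeR 4.0.16 (robust quasi-likelihood) in R 4.3.3, as 4 group means over all 12 libraries. The study's methods used limma voom, which was run as an alternative (limma 3.58.1, also with 2 surrogate variables from sva 3.50.0). The study also describes adjusting for batch, which it does not define, and for surrogate variables. The voom runs for thioridazine and group size had no batch or letter term, so they do not repeat the study's fit. Standard errors are Wald errors. Further alternatives included RLE size factors, DESeq2 1.42.0, no filter, limma on the authors' log2 CPM, the letter as a replicate block, summed copies and leaving out each library. Letters B and C alone, DESeq2 with the block, treatment-by-letter terms, summed copies with the block and the tests of copy shares were added after seeing the data. Fits were tested on simulated data with the same treatment fold in every letter, which does not cover a response that differs between letters.

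Letters, taken from the sample labels, were taken to pair the libraries because each library's departures from its group mean correlated with those of its letter, at 0.282 to 0.769 over 18 pairs (-0.628 to 0.182 between letters). Departures within a group cancel out, which by construction pushes the values between letters down. No library duplicated another, the lowest chi-square per gene being 2.99.

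The members and lists were chosen with earlier results of these data known. All members were named, with the 5 named genes of highest correlation to their mean log2 CPM profile (prior count of 2) and the 3 genes of smallest p per list. Rows without a gene symbol were passed over. Sequences and coordinates were not used here, nor were stage 35 samples. Likeness r values carry no p.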

Additional observations from a re-analysis of the deposited data

Results flagged for a closer look

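The copies of fosb and fosl1 did not pass the filter on low counts and so had no test in the comparisons, but each had a thioridazine library above all its untreated libraries. The highest thioridazine library reached 3.89 CPM for fosb.L, 2.14 CPM for fosb.S, 2.71 CPM for fosl1.L and 1.57 CPM for fosl1.S. The highest untreated library reached 0.927, 1.25, 0.732 and 0.535 CPM in the same order. In all 4 rows the highest thioridazine library belonged to letter A. These rows held only 7 (fosl1.L) to 24 (fosb.L) expected counts over all untreated libraries. The share of other rows under the filter with such an order is not given here. When the filter was left out, the log2 fold change with thioridazine averaged over group sizes was 1.01 ± 0.67 for fosb.L, 1.35 ± 0.69 for fosb.S, 2.68 ± 1.16 for fosl1.L (edgeR unadjusted p = 0.00990) and 1.14 ± 1.00 for fosl1.S, and edgeR called none of the 4 after adjustment.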

How the results depend on the processing

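The number of family rows called for thioridazine averaged over group sizes was 2 without the block and with RLE size factors, no filter or limma on the authors' log2 CPM. It was 5 with the replicate block, where letters pair the libraries, 4 with DESeq2, 5 with DESeq2 and the block, 1 with limma voom (junb.S, with junb.L at adjusted p = 0.0511) and 5 with 2 surrogate variables. It was 1 in letters B and C alone and 2 there with the block. Leaving out 1 library at a time gave 0 to 2. In small groups the number was 0, and 1 with the block, 2 with surrogate variables, 2 with DESeq2 and the block and 1 in letters B and C with the block. In large groups it was 0, and 4, 5, 5 and 2 under the same settings and 3 with DESeq2. These counts include fos.L wherever its adjusted p was under 0.05, which is not read as a call. With the edgeR block fos.L was among the 5 rows of the average and the 4 of large groups. Calls over all genes also rose with the block, so the rise was not particular to the family. From 0.0092% called higher at each group size, edgeR with the block reached 0.179% in small and 0.258% in large groups. In letters B and C with the block the shares were 0.19% and 0.238%. Shares for the remaining settings at each group size are not given here. For letter A against letters B and C, 6 rows were called and 4 to 7 when 1 library was left out. The block changed no other count of family rows, and 0 family rows were called for group size in every setting. Over all genes the count for group size was not 0 in every setting. The exception, letters B and C with the block, is given below.

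Every fold change of the thioridazine average kept its sign except for 2 rows that were not called. jund.L, at -0.08, became 0.32 in letters B and C alone, 0.27 there with the block and -0.24 to 0.31 without 1 library. The summed jund copies gave 0.20, but jund.L held a median of only 6.95% of their counts in untreated and 5.69% in thioridazine libraries. fosl2.S, at 0.18, became -0.040 and -0.062 in letters B and C alone without and with the block. The causes were not tested.

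Over all genes, edgeR called 19 for the thioridazine average and 94 with the block, DESeq2 called 50 and 120 with the block, limma voom with surrogate variables 127, and edgeR 2 to 19 without 1 library. In letters B and C alone it called 25 of 20552 genes, and 71 with the block. In that blocked fit 1024 of the 20552 genes were called for group size in untreated embryos. In small groups the count rose from 2 to 39 with the block, and in large groups from 2 to 56. The limits are 3 libraries per group, a letter effect wider than the treatment effect for many genes, and few reads for fos, fosb, fosl1 and jund.L, where 1 read is a large part of the value.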
